A study of Mus musculus with 24 samples.

Results

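The genes described here mark the immune cells of the embryonic urogenital sinus (UGS). They are 10 of the 24717 genes tested: the complement genes C1qa, C1qb and C1qc, the lysozyme gene Lyz2, the signalling adaptor gene Tyrobp, the receptor genes Mrc1, Adgre1 and Csf1r, the leukocyte gene Ptprc and the mast cell protease gene Cpa3. They were chosen by name, with earlier results of these data known, so their counts beside shares of all genes are a description. Every probe that carries one of these names in the scanner files was taken. Lyzs was read as Lyz2, Emr1 as Adgre1 and C1qg as C1qc. This gave 16 probes, of which 15 passed the filter on dim spots, and 6 of the genes had a single probe. Where a gene had several, the brightest probe stood for it.

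The UGS is the tube of embryonic epithelium and mesenchyme that gives rise to the prostate in males. The study asked which of its genes depend on androgen. In 4 pairs of RNA pools the UGS of female C57/Bl6J embryos taken 6 h after their mothers received 50 mg/kg dihydrotestosterone (DHT) at 16 days post conception (dpc) was set against that of female embryos of vehicle-treated mothers, and in 3 pairs the same was done 12 h after treatment. In 5 pairs the UGS of untreated male embryos was set against that of female littermates at 17.5 dpc, a comparison whose label also carries the number 48 for hours. None of the groups carries a mutation or transgene per the labels, and the number of embryos in a pool is not given in the sources used here, so the pool is the unit of replication. Each pair was hybridised on 2 two-colour arrays with exchanged dyes, 24 arrays in all, and these 2 arrays were averaged to 1 replicate. Pairs are numbered by the sample titles, and the source names number male-female pairs 1 and 2 the other way round.

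Macrophages settle in embryonic tissues from the yolk sac and the fetal liver and clear dying cells during organ formation. C1q, the recognition protein of the classical complement pathway, is made mainly by macrophages and binds dying cells and immune complexes. Mast cells lie in connective tissue and store proteases, among them carboxypeptidase A3, in granules. The factor PU.1, which binds sites with a GGAA core, is needed to form macrophages, and GATA factors act in mast cells.

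RefSeq promoter sequences of build GRCm38.p6 were at hand for 6 of the 10 genes, C1qb, C1qc, Lyz2, Mrc1, Ptprc and Cpa3. The 250 bases before the start of transcription are printed for the members that differed most between groups and for C1qb, whose gene lies on the same chromosome as C1qc. They lie at chr4:136886201-136886450 for C1qb, chr4:136892915-136893164 for C1qc, chr10:117282273-117282522 for Lyz2 and chr3:20242182-20242431 for Cpa3, all on the minus strand, and read 5′ to 3′ along the gene. In the first 3 sequences capitals mark AGGAAG or GAGGAA on either strand, where the 2 may overlap, and in Cpa3 they mark GATAA on either strand.
C1qb: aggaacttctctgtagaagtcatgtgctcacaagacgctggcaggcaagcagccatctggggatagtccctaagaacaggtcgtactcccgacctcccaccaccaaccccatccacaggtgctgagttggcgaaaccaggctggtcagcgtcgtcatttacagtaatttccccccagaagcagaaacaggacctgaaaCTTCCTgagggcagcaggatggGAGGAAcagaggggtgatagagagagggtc
C1qc: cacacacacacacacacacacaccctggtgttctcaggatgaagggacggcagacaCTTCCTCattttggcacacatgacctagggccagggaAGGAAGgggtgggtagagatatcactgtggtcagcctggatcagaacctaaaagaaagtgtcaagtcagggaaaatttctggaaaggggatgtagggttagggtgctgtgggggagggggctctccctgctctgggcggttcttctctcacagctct
Lyz2: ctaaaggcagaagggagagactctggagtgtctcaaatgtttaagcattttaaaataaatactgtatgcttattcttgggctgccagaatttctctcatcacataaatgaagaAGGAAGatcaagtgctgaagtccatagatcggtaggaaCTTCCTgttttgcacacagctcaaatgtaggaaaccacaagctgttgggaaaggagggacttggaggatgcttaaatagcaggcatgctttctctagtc
Cpa3: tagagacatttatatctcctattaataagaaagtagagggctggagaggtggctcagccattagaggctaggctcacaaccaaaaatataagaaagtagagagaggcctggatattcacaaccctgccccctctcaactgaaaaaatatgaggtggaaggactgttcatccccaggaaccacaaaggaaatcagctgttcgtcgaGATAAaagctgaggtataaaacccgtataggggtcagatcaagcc
AGGAAG was held by 6 of the 7 member promoters (Ptprc has 2), those of C1qb, C1qc, Lyz2, Mrc1 and both of Ptprc, against 29.5% of all 32851 promoters over the same 250 bases. GAGGAA was held by 4 of the 7, C1qb, C1qc, Mrc1 and 1 of Ptprc, against 23.3% of all promoters. GATAA was held by 2 of the 7, Cpa3 and 1 of Ptprc, against 22.6% of all. The motifs were chosen with these matches in view, and a match describes letters and not a bound site.

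Arrays had median non-control signals of 102.3 to 151.1 for Cy3, and of 98.14 to 146.2 for Cy5. A level is the log2 signal of 1 pool at 1 probe after normalisation, and a log2 ratio is that of the DHT over the vehicle pool or of the male over the female pool. The chosen probe of each member was well above background on 24 of 24 arrays and saturated on none. Over all genes, the log2 ratios of the 2 dye orientations correlated at −0.5 to −0.049 in the 6 h pairs, −0.197 to 0.162 in the 12 h pairs and 0.39 to 0.762 in the male-female pairs. Y-linked RNA was present in 3 of the 4 vehicle pools of the 6 h pairs, which are labelled female: Eif2s3y, a Y-linked translation factor, had levels of 5.99, 6.27, 6.4 and 6.24 in the DHT pools of pairs 1 to 4, against 6.02, 8.66, 7.64 and 7.81 in their vehicle pools. In the sexes it had levels of 8.51 to 9.01 in male pools, against 5.98 to 6.36 in female pools. Pair 1 at 6 h was therefore the only one of the 4 without such a signal.

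Of the 10 genes, 2 were higher in the UGS 6 h after DHT, none passed the test at 12 h, and 6 were lower in male than in female UGS at 17.5 dpc. The threshold was an adjusted p of 0.05 in limma, over all genes. Shares of all genes called are at this threshold. No such share was counted for an unadjusted p under 0.05, here or below. The 2 at 6 h were Adgre1 and Ptprc, where 0.494% of all genes were called higher and 1.17% lower. Members stood at a median log2 ratio of 0.202 there, against 0.007 over all genes. At 12 h no member passed in limma, where 0.113% of all genes were called higher and 0.174% lower, 1 member had an unadjusted p under 0.05, and the members' median was −0.014, against 0.002 over all genes. In males 6 of 10 members were lower, C1qa, C1qb, C1qc, Lyz2, Tyrobp and Adgre1, and none was higher, where 3.86% of all genes were called lower and 3.72% higher. The members' median was −0.23 between the sexes, against 0.001 over all genes. In a bulk sample, fewer cells of a type and less RNA per cell cannot be told apart. The sample titles number the pairs as biological replicates. Nothing in the labels says whether the pools of a group came from separate litters, so the p-values may measure a partly technical spread.

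At 6 h 8 of 10 members had a log2 ratio above 0 in every one of the 4 pairs, all but C1qa and C1qb, and none had one below 0 in every pair, against 12.8% and 11.8% of all genes. At 12 h Cpa3 was above 0 in every pair and C1qa below 0 in every pair, 1 member each, against 16.8% and 18.6% of all genes. Between the sexes 6 of 10 members were below 0 in all 5 pairs, C1qa, C1qb, C1qc, Tyrobp, Adgre1 and Ptprc, and 0 were above, against 7.97% and 7.85% of all genes.

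**Figure D1:**
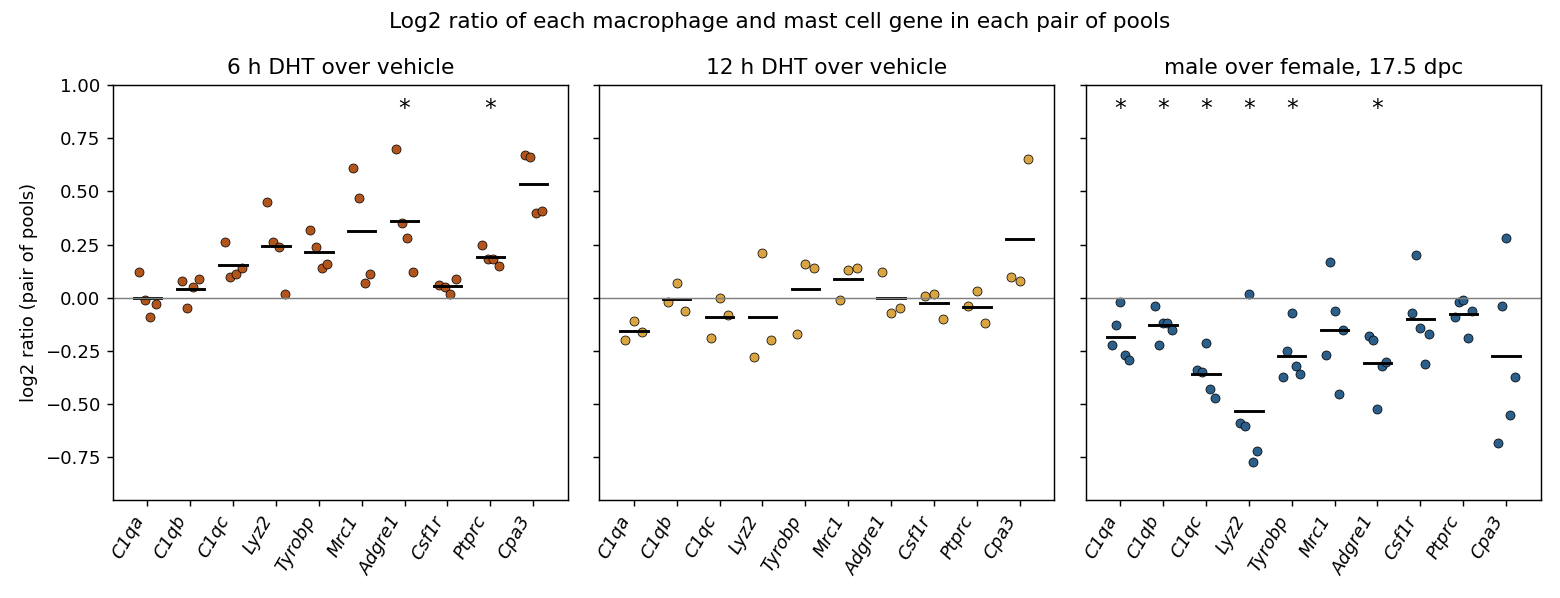
Log2 ratio of each gene in each pair of pools (points, pair 1 on the left), with the mean over pairs (bar), for DHT over vehicle at 6 h (4 pairs), at 12 h (3 pairs) and male over female at 17.5 dpc (5 pairs). A star marks an adjusted p under 0.05: Adgre1 and Ptprc at 6 h, none at 12 h, and 6 genes, all lower in males, between the sexes.

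Among the complement genes, C1qc encodes the C chain of C1q and was the member with the smallest p between the sexes. Its levels in the male pools of pairs 1 to 5 were 8.83, 8.72, 8.78, 8.6 and 8.53, against 9.17, 9.06, 8.99, 9.03 and 9.01 in the female pools. Every male pool lay below every female pool. The share of all genes whose pools separate in this way was not counted, here or for the members below. The log2 ratios of the 5 pairs were −0.34, −0.35, −0.21, −0.43 and −0.47, a mean of −0.36 (SE 0.04, 0.78-fold, adjusted p = 0.000103 in limma), and both dye orientations gave about the same mean, −0.36 without and −0.35 with the swap. At 6 h its levels were 8.99, 8.91, 9.01 and 8.99 in DHT pools, against 8.73, 8.81, 8.9 and 8.85 in vehicle pools. These groups did not overlap either, with log2 ratios of 0.26, 0.1, 0.11 and 0.14, but the mean of 0.15 (SE 0.05) missed the threshold with an adjusted p of 0.115. At 12 h its log2 ratios were −0.19, 0 and −0.08 and its levels overlapped, with 8.26 to 8.41 in DHT pools and 8.34 to 8.5 in vehicle pools.

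C1qa and C1qb encode the A and B chains. C1qa had levels of 7.56, 7.56, 7.5, 7.44 and 7.21 in male pools, against 7.77, 7.69, 7.52, 7.71 and 7.49 in female pools. The groups overlapped, while each male pool was below its own littermates, with log2 ratios of −0.22, −0.13, −0.02, −0.27 and −0.29 (mean −0.19, SE 0.04, adjusted p = 0.0137). C1qb had levels of 7.85, 7.69, 7.79, 7.84 and 7.57 in male pools, against 7.89, 7.92, 7.91, 7.96 and 7.73 in female pools. Its log2 ratios of −0.04, −0.22, −0.12, −0.12 and −0.15 (mean −0.13, SE 0.03, adjusted p = 0.0314) were the smallest that passed among the members. Both calls lean on 1 dye orientation: C1qa averaged −0.36 in males over females without the swap and −0.01 with it, and C1qb −0.31 and 0.04. Both calls were also lost without male-female pair 4 (adjusted p = 0.0734 for C1qa and 0.093 for C1qb) or pair 5 (0.0536 and 0.0791), and that of C1qb without pair 2 (0.128) or pair 3 (0.0638).

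With DHT neither gene passed. C1qa had log2 ratios of 0.12, −0.01, −0.09 and −0.03 at 6 h, with levels of 6.48 to 6.56 in DHT pools and 6.44 to 6.57 in vehicle pools, and of −0.2, −0.11 and −0.16 at 12 h, with 7.03 to 7.22 in DHT pools and 7.23 to 7.33 in vehicle pools. The 12 h mean of −0.16 (SE 0.05) had an unadjusted p of 0.0118 and an adjusted p of 0.203. C1qb stayed near 0, with log2 ratios of 0.08, −0.05, 0.05 and 0.09 at 6 h and −0.02, 0.07 and −0.06 at 12 h. Its 2 dye orientations were far apart here too, −0.24 without and 0.32 with the swap at 6 h, both larger than its mean over pairs.

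**Figure D2:**
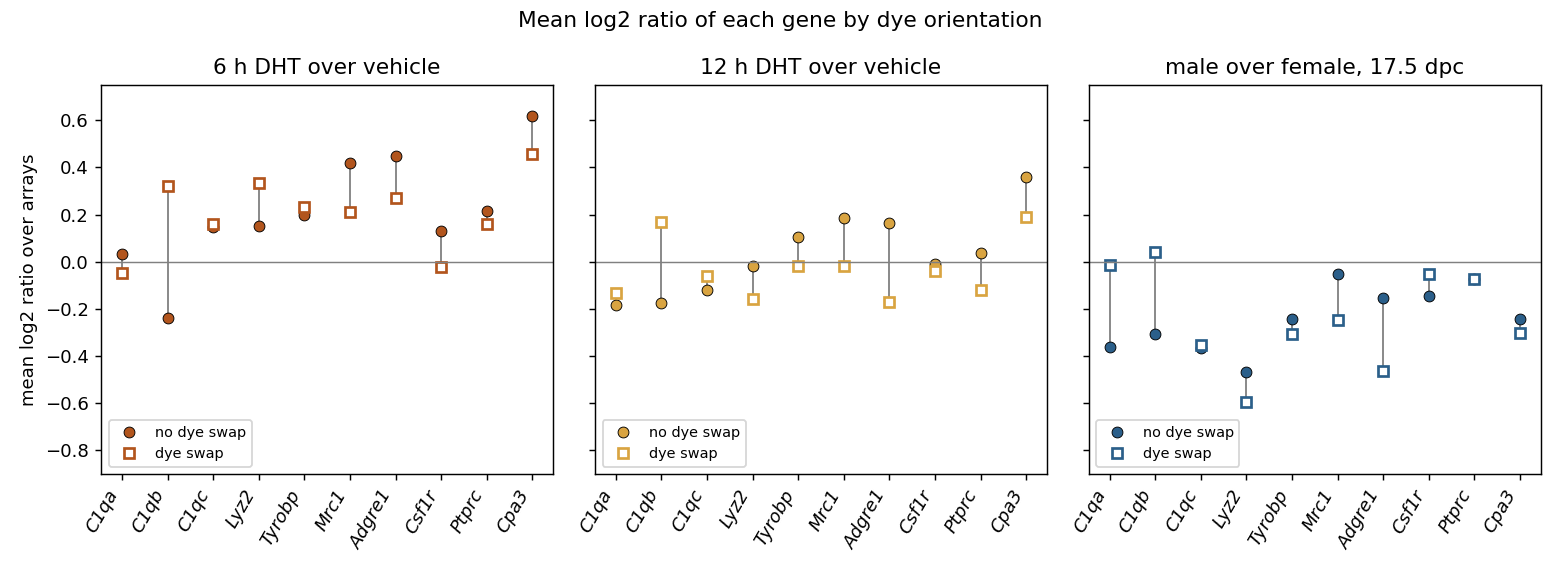
Mean log2 ratio of each gene over the arrays without dye swap (filled circles) and with dye swap (open squares), for DHT over vehicle at 6 h and 12 h and male over female at 17.5 dpc. C1qb lies on opposite sides of 0 in the 2 orientations of all 3 comparisons. C1qc, Lyz2, Tyrobp, Mrc1, Adgre1, Ptprc and Cpa3 lie on the same side in both at 6 h and between the sexes.

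Lyz2 encodes the lysozyme of myeloid cells, which cleaves bacterial cell walls. Its levels in the male pools of pairs 1 to 5 were 9.95, 9.87, 10.35, 9.92 and 9.65, against 10.54, 10.47, 10.33, 10.69 and 10.36 in the female pools. Of the male pools 4 lay below all female pools, and that of pair 3 lay within the female range. The log2 ratios were −0.59, −0.6, 0.02, −0.77 and −0.72 (mean −0.53, SE 0.10, 0.692-fold, adjusted p = 0.00521), the largest mean difference between the sexes among the members. At 6 h all 4 DHT pools, at 10.67, 10.52, 10.55 and 10.35, lay above all vehicle pools, at 10.22, 10.26, 10.31 and 10.33. The log2 ratios of 0.45, 0.26, 0.24 and 0.02 spread widely, and the mean of 0.24 (SE 0.11) did not pass (adjusted p = 0.357). At 12 h the pairs disagreed, with −0.28, 0.21 and −0.2. The second, dimmer probe of Lyz2 read 0.09 at 6 h, −0.06 at 12 h and −0.08 between the sexes, and passed in none. Lyz2 has a close paralogue, Lyz1, whose RNA the probe may also bind.

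Tyrobp encodes DAP12, the adaptor through which many myeloid receptors signal. In males its levels were 7.55, 7.52, 7.61, 7.49 and 7.34, against 7.91, 7.77, 7.68, 7.81 and 7.7 in females. No male pool reached the female range. The log2 ratios were −0.37, −0.25, −0.07, −0.32 and −0.36 (mean −0.27, SE 0.05, 0.827-fold, adjusted p = 0.00578). At 6 h it had 8.43, 8.38, 8.28 and 8.25 in DHT pools, against 8.11, 8.14, 8.14 and 8.09 in vehicle pools, again with no overlap. The mean log2 ratio of 0.21 (SE 0.06) had an unadjusted p of 0.00325 and an adjusted p of 0.0907. At 12 h the log2 ratios were −0.17, 0.16 and 0.14. C1qc, Lyz2 and Tyrobp stayed past the threshold in males when any single pair of the 12 was left out.

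Of the surface receptors, Adgre1 encodes F4/80, the classic surface marker of mouse macrophages, and was the member that passed in both the 6 h and the male-female comparison. At 6 h its levels were 9.41, 9.23, 9.21 and 9.13 in DHT pools, against 8.71, 8.88, 8.93 and 9.02 in vehicle pools. All DHT pools were above all vehicle pools, and the log2 ratios were 0.7, 0.35, 0.28 and 0.12 (mean 0.36, SE 0.08, 1.28-fold, adjusted p = 0.0379). In males it had 8.66, 8.28, 8.13, 8.13 and 8.24, against 8.84, 8.49, 8.65, 8.45 and 8.54 in females. Here the groups overlapped through the male pool of pair 1, while all 5 log2 ratios were negative: −0.18, −0.2, −0.52, −0.32 and −0.3 (mean −0.31, SE 0.07, adjusted p = 0.0147). In males over females Adgre1 averaged −0.15 without the swap and −0.46 with it. Without male-female pair 3 the adjusted p was 0.0533 and without pair 4 it was 0.057. At 12 h the log2 ratios were 0.12, −0.07 and −0.05, with a mean of 0. A second probe of Adgre1, well above background on only 9 of 24 arrays, read 0.04 at 6 h, −0.08 at 12 h and 0.02 in males over females. With the mean of both probes Adgre1 stood at 0.20 at 6 h (adjusted p = 0.0525) and −0.14 in males over females (adjusted p = 0.054), and neither passed.

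Mrc1 encodes the mannose receptor CD206 of tissue macrophages. Its 6 h levels were 8.67, 8.62, 8.51 and 8.44 in DHT pools, against 8.06, 8.15, 8.44 and 8.33 in vehicle pools. The log2 ratios of 0.61, 0.47, 0.07 and 0.11 were high in pairs 1 and 2 and low in pairs 3 and 4, and the mean of 0.31 (SE 0.10) had an adjusted p of 0.123. At 12 h they were −0.01, 0.13 and 0.14. In males Mrc1 had levels of 7.88, 8.09, 7.63, 7.27 and 7.7, against 8.14, 7.92, 7.69, 7.71 and 7.85 in females. Pair 2 was higher in males and the other 4 lower, with log2 ratios of −0.27, 0.17, −0.06, −0.45 and −0.15 (mean −0.15, SE 0.09, adjusted p = 0.419).

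Csf1r encodes the receptor for CSF1, on which most macrophages depend. It passed in no comparison. At 6 h the log2 ratios were 0.06, 0.05, 0.02 and 0.09 and at 12 h 0.01, 0.02 and −0.1. In males its levels were 7.7, 8.11, 7.72, 7.63 and 7.68, against 7.77, 7.9, 7.86, 7.94 and 7.85 in females. As with Mrc1, pair 2 was the one pair higher in males: the log2 ratios were −0.07, 0.2, −0.14, −0.31 and −0.17 (mean −0.10, SE 0.05, adjusted p = 0.401). Without pair 2 the mean was −0.17 with an adjusted p of 0.0247. Its 2 dimmer probes read −0.02 and 0.01 at 6 h, −0.13 and 0.06 at 12 h, and −0.01 and −0.06 in males over females.

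Ptprc encodes CD45, a phosphatase on all white blood cells. At 6 h its levels were 6.79, 6.8, 6.91 and 6.77 in DHT pools, against 6.54, 6.62, 6.72 and 6.62 in vehicle pools. The groups did not overlap, and the log2 ratios of 0.25, 0.18, 0.18 and 0.15 were close to each other (mean 0.19, SE 0.04, 1.14-fold, adjusted p = 0.0266). At 12 h they were −0.04, 0.03 and −0.12. In males they were −0.09, −0.02, −0.01, −0.19 and −0.06, with levels of 6.17 to 6.41, against 6.26 to 6.43 in females (mean −0.07, SE 0.03, adjusted p = 0.263). The scanner software's own log ratio, which adds no offset, gave 0.36 at 6 h (adjusted p = 0.137) and −0.30 between the sexes (adjusted p = 0.0576). Its 2 other probes were well above background on 7 and on 1 of 24 arrays and read between −0.05 and 0.02 in all 3 comparisons. With the mean of its probes Ptprc stood at 0.07 at 6 h (adjusted p = 0.427). With single arrays and a dye term its 6 h adjusted p was 0.0894, and with the feature extraction day as a block 0.101.

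Both 6 h calls depended on single pairs. With any one of 6 h pairs 1, 2 or 3 left out no member passed, and without pair 4 only Adgre1 did, with a mean of 0.44 there. The call of Adgre1 was also lost without 12 h pair 2 (adjusted p = 0.0593), 12 h pair 3 (0.0563) or male-female pair 4 (0.0519), which leave its ratio as it is and alter the shared estimate of spread. Cpa3 passed at 6 h without male-female pair 1 (0.047) or pair 3 (0.0232). Epithelial, mesenchymal, neutrophil and red cell markers and Y-linked RNA varied over the same pairs. Across pairs 1 to 4 the members' median log2 ratio was 0.286, 0.208, 0.129 and 0.111, while the mean over 22 epithelial genes was −0.52, −0.412, −0.096 and 0.008. No epithelial gene passed at 6 h, 12 of 22 had an unadjusted p under 0.05, and the summed epithelial signal was 20152 to 24214 in DHT pools, against 23491 to 31885 in vehicle pools. The Y-linked mean was −0.141, −1.272, −0.675 and −0.741. Over 8 neutrophil genes the mean was 0.508, 0.169, −0.017 and −0.03, and over 9 red cell genes 0.276, 0.25, −0.309 and −0.015. Over 12 mesenchymal genes it was 0.138, 0.096, −0.047 and −0.019. Over 13 lymphocyte genes it stayed at 0.039, 0.049, 0.017 and 0.041. Pair 1, the pair without Y-linked RNA in the vehicle pool, had the largest 6 h ratio of 8 members, C1qa, C1qc, Lyz2, Tyrobp, Mrc1, Adgre1, Ptprc and Cpa3. Fitted as the only 6 h pair, it gave 0.7 for Adgre1 with an adjusted p of 0.14. The share of all genes with their largest 6 h ratio in pair 1 was not counted. The part of epithelial, mesenchymal and blood cell content and of male RNA in the 6 h ratios was not tested. On the 4 arrays that were feature-extracted on the earlier day the members' median was 0.244, and on the 4 of the later day it was 0.138.

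**Figure D3:**
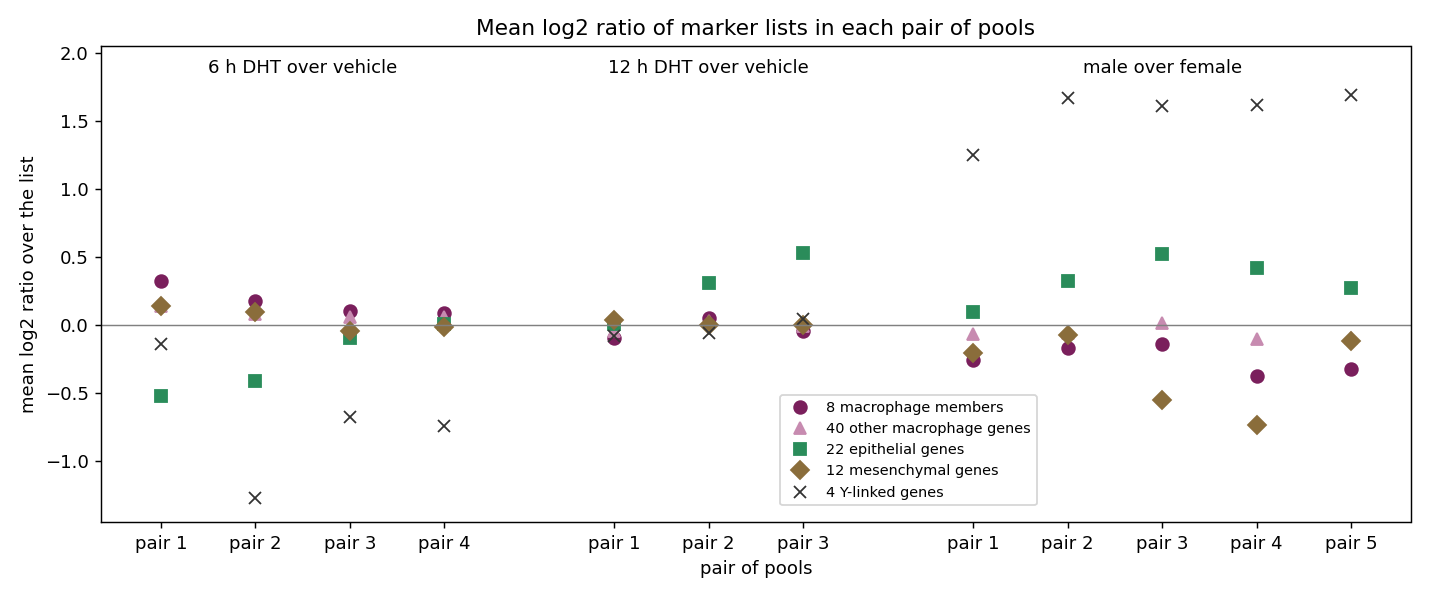
Mean log2 ratio over each marker list (y axis) in each of the 12 pairs of pools (x axis), DHT over vehicle at 6 h and 12 h and male over female. At 6 h the 8 macrophage members stand at 0.324, 0.174, 0.103 and 0.087 and the epithelial genes at −0.52, −0.412, −0.096 and 0.008, and in males all 5 macrophage means are below 0, between −0.374 and −0.14.

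Cpa3 encodes the carboxypeptidase of mast cell granules, and it had the largest 6 h log2 ratio of the members. Its levels were 7.39, 7.69, 7.46 and 7.56 in DHT pools, against 6.72, 7.03, 7.06 and 7.15 in vehicle pools. All DHT pools were above all vehicle pools. The log2 ratios were 0.67, 0.66, 0.4 and 0.41, all 8 arrays were above 0, and the mean was 0.54 (SE 0.13, 1.45-fold), but the adjusted p of 0.0646 missed the threshold. At 12 h the levels were 6.87, 6.86 and 7.06 in DHT pools, against 6.77, 6.78 and 6.41 in vehicle pools. The log2 ratios of 0.1, 0.08 and 0.65 rest mostly on pair 3, and without it the mean was 0.09, against 0.28 with it. In males Cpa3 had 6.86, 6.43, 7.26, 6.46 and 6.57, against 7.55, 6.46, 6.98, 7.01 and 6.94 in females. These groups overlapped widely, with log2 ratios of −0.68, −0.04, 0.28, −0.55 and −0.37 (mean −0.27, SE 0.12, adjusted p = 0.237). Without pair 3, the pair higher in males, the mean was −0.41 and the adjusted p 0.0326. The scanner software's own log ratios were larger for this dim probe, 0.89 at 6 h (adjusted p = 0.215) and −0.65 between the sexes (adjusted p = 0.202).

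**Figure D4:**
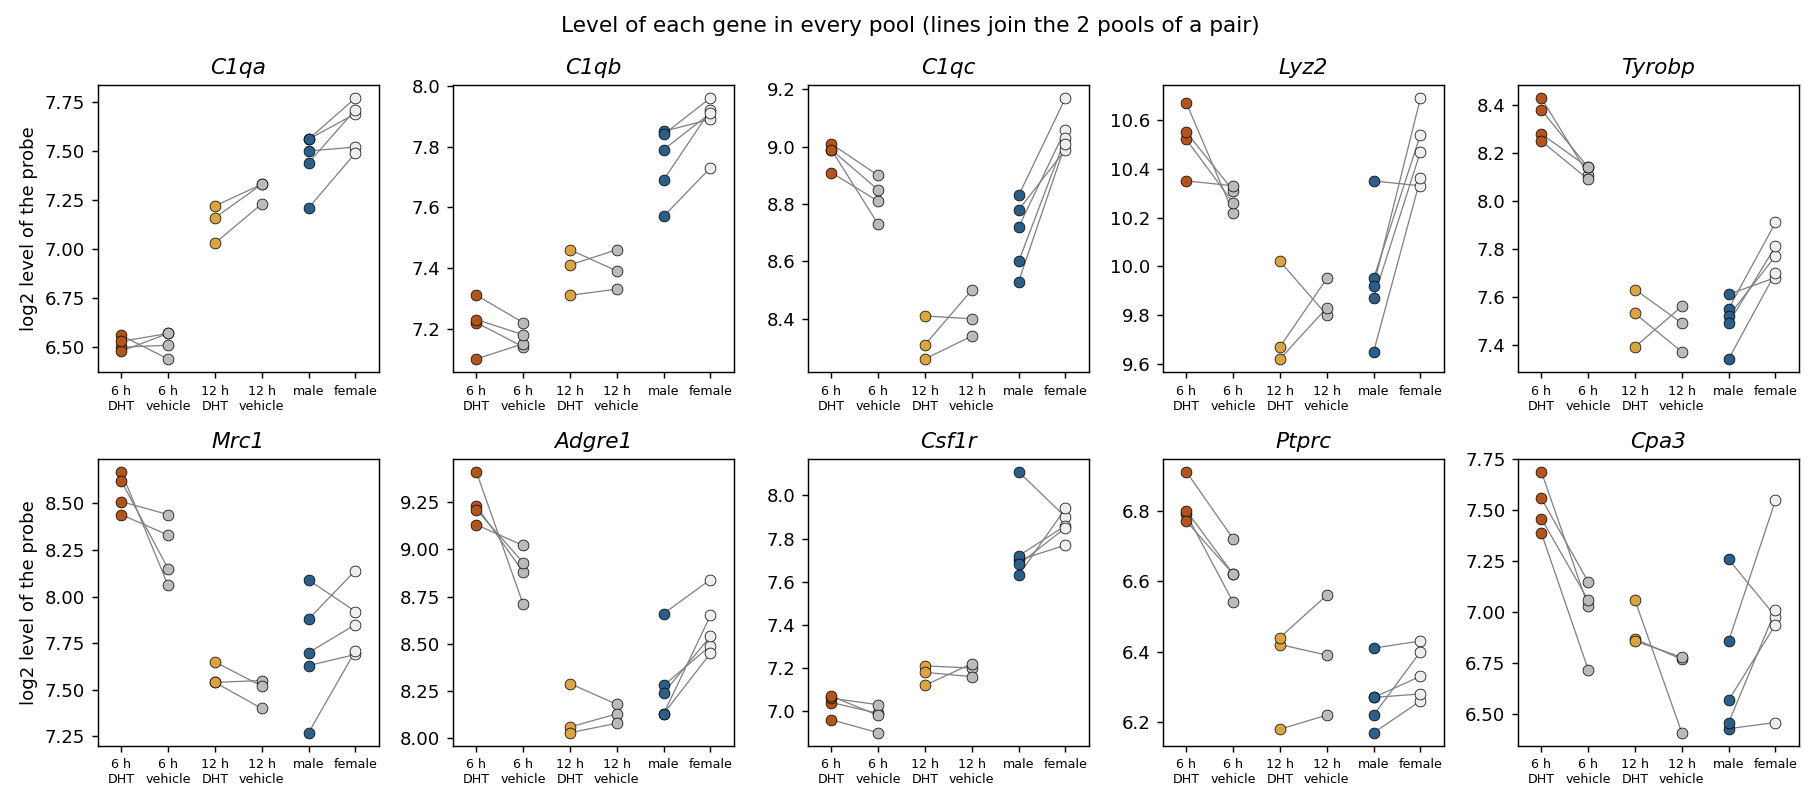
Log2 level of the chosen probe of each gene in every pool, DHT left of vehicle at 6 h and 12 h and male left of female at 17.5 dpc, with a line between the 2 pools of a pair. The male pools of C1qc and Tyrobp lie below all female pools. The 6 h DHT pools of C1qc, Lyz2, Tyrobp, Adgre1, Ptprc and Cpa3 lie above all vehicle pools. At 12 h the DHT pools of Cpa3 lie above and those of C1qa below all vehicle pools. The share of all genes that separate like this was not counted.

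The differences between the comparisons were tested in the same limma fit. The male-female ratio minus the 6 h ratio passed for 7 of 10 members, all in the direction of a lower male-female ratio, where 6.9% of all genes passed in either direction. It was −0.81 (SE 0.18) for Cpa3, −0.77 (SE 0.15) for Lyz2, −0.67 (SE 0.10) for Adgre1, −0.51 (SE 0.06) for C1qc, −0.49 (SE 0.08) for Tyrobp, −0.46 (SE 0.13) for Mrc1 and −0.26 (SE 0.05) for Ptprc. The adjusted p ran between 0.000346 for C1qc and 0.0486 for Mrc1. C1qc, Lyz2, Tyrobp, Adgre1 and Ptprc passed with any single pair left out, and with 6 h pair 1 as the only 6 h pair Adgre1 alone passed. The 12 h minus 6 h difference was below 0 for all 10 members, between −0.36 and −0.05, where 48.35% of all genes were above 0. It passed for none in limma, where 0.113% of all genes passed. At an unadjusted p under 0.05 it held 3 members. The male-female minus 12 h difference was also below 0 for all 10, between −0.55 and −0.03, where 49.63% of all genes were above 0. It passed for none, where 1.65% of all genes passed the adjusted threshold. At an unadjusted p under 0.05 in limma, with no share of all genes counted, it held 6 members. Per the labels, each comparison was hybridised on a day of its own, so its hybridisation and its biology cannot be told apart in these differences. The same holds for levels, which for Adgre1 averaged 9.24 ± 0.12 in 6 h DHT pools (SD, n = 4), 8.88 ± 0.13 in 6 h vehicle pools, 8.13 ± 0.14 in 12 h DHT pools (n = 3), 8.13 ± 0.05 in 12 h vehicle pools, 8.29 ± 0.22 in male pools (n = 5) and 8.59 ± 0.16 in female pools. C1qa ran in another order, with 6.52 ± 0.04, 6.52 ± 0.06, 7.14 ± 0.1, 7.29 ± 0.06, 7.45 ± 0.15 and 7.64 ± 0.12 in the same groups.

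Of 40 other macrophage genes, all tested, 8 were lower in males, Ctss, Ms4a7, Mpeg1, Aif1, Lgmn, Fcgr3, Cd14 and Ms4a6d, and 2 were higher, among them Tlr2. Ctss, a lysosomal protease that trims antigens, had a log2 ratio of −0.37 (adjusted p = 0.0026), and Ms4a7, a membrane protein of tissue macrophages, −0.29 (adjusted p = 0.00247). Tlr2, a receptor for bacterial lipoproteins, stood at 0.30 (adjusted p = 0.0231). The median of the 40 was −0.058 between the sexes, against 0.001 over all genes. At 6 h 2 of the 40 were higher with DHT, among them the membrane protein gene Ms4a6d at 0.30 (adjusted p = 0.00924), none was lower, and the median was 0.045. At 12 h none of the 40 passed in limma, 7 had an unadjusted p under 0.05, and the median was −0.003. The summed signal of the 40 was 7208 to 7883 in male pools, against 7722 to 8045 in female pools.

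Of 17 mast cell genes other than Cpa3, 14 were tested, and Mcpt2, Tpsab1 and Mrgprb1 did not pass the filter. Kit, the receptor for stem cell factor, which other cells carry too, was higher in males at 0.33 (adjusted p = 0.000767) and was the only one of the 14 to pass in the 3 comparisons. At an unadjusted p under 0.05 there were 2 at 6 h, 1 at 12 h and 3 between the sexes. Cma1, a granule chymase, had log2 ratios of 0.2, 0.51, 0.11 and 0.33 at 6 h and −0.97, 0.02, 0.33, −0.64 and −0.53 in males over females, and Hdc, which makes histamine, 0.33, 0.37, 0.29 and 0.18 at 6 h and −0.31, −0.21, −1.48, −0.05 and −0.42 in males. Neither passed in any comparison. Others of the list did not run this way: Mcpt1 read −0.04 at 6 h and −0.01 between the sexes, and Tpsb2 0.03 and 0.12. Of the 14, 11 were above 0 at 6 h and 5 were above 0 between the sexes. The median of the 14 was 0.052 at 6 h, 0.07 at 12 h and −0.038 between the sexes.

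Among 13 further complement genes, Masp1, a protease of the lectin pathway, was lower in males at −0.50 (adjusted p = 0.00967), and none passed with DHT. Of 10 genes for ligands that recruit or sustain these cells, Ccl11, which encodes the eosinophil attractant eotaxin, was lower in males at −0.64 (adjusted p = 0.000109), with log2 ratios of −0.29, −0.54, −0.89, −0.82 and −0.64. The CSF1 receptor ligands Csf1 and Il34 read −0.03 and −0.02 between the sexes and did not pass in any comparison. In limma none of 8 neutrophil, 5 platelet and 9 red cell genes passed in any comparison. At an unadjusted p under 0.05 there were 0 neutrophil genes, 1 platelet gene at 12 h and 1 between the sexes, and 5 red cell genes at 12 h. Of 15 endothelial genes Sox17 (−0.98) and Sox18 (−0.12) were lower in males, and of 13 lymphocyte genes Cd79b was lower in males at −0.20 (adjusted p = 0.0126).

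Markers of the tissue layers also differed between male and female pools. Of 22 epithelial genes 12 were higher in males, among them Epcam, Cdh1 and Foxa1, and Cldn6 was lower, with a summed signal of 45699 to 64583 in male pools, against 40249 to 48786 in female pools. Of 12 mesenchymal genes 5 were lower in males, Col1a1, Col3a1, Pdgfrb, Prrx1 and Twist2, with sums of 79243 to 171710 in male pools, against 151209 to 170606 in female pools. The mesenchymal mean was −0.206, −0.075, −0.555, −0.735 and −0.119 in pairs 1 to 5. Among these pairs the macrophage members averaged −0.258, −0.172, −0.14, −0.374 and −0.327. Without pairs 3 and 4, a choice made after seeing these values, C1qa, C1qc, Lyz2 and Tyrobp passed, 4 members, and the calls of Adgre1 (adjusted p = 0.216) and C1qb (0.179) were lost. In the 3 pairs kept the epithelial mean was 0.094, 0.321 and 0.269, and the mesenchymal mean was −0.206, −0.075 and −0.119. The part of tissue makeup in the members' ratios was not tested.

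The highest Pearson correlations, given as a description of pairs that fall into 3 comparisons, were 0.959 for C1qc with Tyrobp, 0.94 for C1qc with Lyz2 and 0.935 for Lyz2 with Tyrobp. With each comparison's mean removed they were 0.836, 0.86 and 0.788. Adgre1 with Tyrobp stood at 0.731, and at −0.185 with the means removed. C1qb with Csf1r was the least alike pair, at 0.279. Of all other genes tested, Ms4a6b, a membrane protein gene of the same family as Ms4a7, was most like the mean of the 8 macrophage members over the 12 pairs (r = 0.972). Its mean log2 ratio was 0.33 at 6 h and −0.27 between the sexes. It was chosen by likeness over these same pairs, so these directions follow from the choice. Next came Bst2, Exoc3l4, Cd300c2, Exoc3, Qpct, Spink2, Stx12, Gpbp1 and Evi2a, with r between 0.961 and 0.939. Most like Cpa3 were Cd83 (r = 0.954), Cma1 (0.933), Nrgn (0.931), Egfl6 (0.929) and Rrm2b (0.927).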

How the data were processed

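RNA of 12 pairs of UGS pools was measured on 24 two-colour Agilent arrays. The authors scanned them with Feature Extraction 7.5.1, per the file headers, and the deposited scanner output holds the spot intensity and local background of both dyes and a log10 ratio of Cy5 over Cy3. The deposited series matrix holds a log2 ratio per probe and array, whose centring is not given in the sources used here. It served as an alternative only.

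In R 4.3.3 with limma 3.58.1 (tables read by data.table, 1.17.8), intensities were corrected (normexp, offset 50), which shrinks ratios of dim probes, and normalised within arrays by loess with controls at weight 0. Levels were scaled between arrays with Aquantile. Outlier spots were set missing, signs were set so that DHT or male is on top, and the 2 dye-swapped arrays of a pair were averaged. Probes well above background in either channel on at least 6 of 24 arrays were kept (35477 of 41174), and the brightest stood for its gene. The 12 pairs were fitted together, 1 coefficient per comparison, with two-sided tests and Benjamini-Hochberg adjustment over 24717 genes, threshold 0.05. The fit was tested on simulated data with independent noise per gene. That simulation held no dye effect and no shared tissue content, so it does not bear on these. All members are named with every probe, other lists by counts and genes that passed, some of which are not reported here. The members and lists were chosen with earlier results of these data known. Alternatives covered background, centring, filters, probes, fits and each pair left out.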

Additional observations from a re-analysis of the deposited data

Results flagged for a closer look

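For 7 members the male-female log2 ratio differed from the 6 h DHT ratio in the test of that difference: by −0.51 for C1qc, −0.77 for Lyz2, −0.49 for Tyrobp, −0.46 for Mrc1, −0.67 for Adgre1, −0.26 for Ptprc and −0.81 for Cpa3. In all 7 the ratio was above 0 with DHT at 6 h and below 0 between the sexes.

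Lyz2 in male-female pair 3 had a log2 ratio of 0.02, far from the −0.59 to −0.77 of the other 4 pairs. Its gap to the nearest of them was 0.769 of the range. It was the only member value of 20 gene and comparison groups that stood apart in this way, and chance flags about 1 in 20.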

How the results depend on the processing

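Of the calls in males, those of C1qc and Tyrobp held in every alternative run, and that of Lyz2 in every one but the fit of the male-female pairs alone, where its adjusted p was 0.0639. That fit left 3 members past the threshold in males, the mean of all probes left 5, without Adgre1, and with 1 pair left out the count was 3 to 6. The 6 h count was 0 with median centring, with the scanner log ratio, with the mean of all probes, with the 6 h pairs fitted alone and with 6 h pair 1 only. It was 5 on single arrays with a dye term and 5 on single arrays with the feature extraction day as a block. There C1qc, Tyrobp, Mrc1 and Cpa3 passed beside Adgre1, and Ptprc did not. These 2 fits put the correlation between the 2 arrays of a pair at 0.169 and 0.167. They thus count 2 arrays of the same pools almost as separate replicates, while the pool is the unit of replication. With 1 pair left out the 6 h count was 0 to 3. The median ratio of the members was 0.286 at 6 h with pair 1 only and −0.339 between the sexes with the scanner log ratio. On single arrays with a dye term the 12 h minus 6 h difference held 2 members and the male-female minus 12 h difference 3, and with the extraction day as a block 2 and 4. With 1 pair left out the male-female minus 12 h difference held 0 to 3, the 3 without male-female pair 3. With 6 h pair 1 only, the male-female minus 6 h difference held 1 member.

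Pairs with the same replicate number in different comparisons had correlations between −0.068 and 0.287 over genes, over 0.1 in 6 of 10 cases. Those with different numbers ran between −0.336 and 0.334. The numbers were not taken to link pairs across comparisons, though these values do not decide it. With the replicate number as a block the 6 h count was 0, and the counts elsewhere were 0 at 12 h and 5 in males, with 0, 7 and 0 for the 3 differences.

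Values near 0 turned their sign. C1qb read −0.005 at 6 h and 0.043 at 12 h with median centring, and 0.001 at 12 h with the replicate block. Adgre1 read 0.036 at 12 h with median centring, and C1qa 0.12 at 6 h with pair 1 only. With 1 pair left out, C1qa ran between −0.048 and 0.024 at 6 h, and at 12 h C1qb ran between −0.039 and 0.024, Lyz2 between −0.239 and 0.006, Tyrobp between −0.016 and 0.151, Adgre1 between −0.062 and 0.031 and Csf1r between −0.046 and 0.011. The cause of these shifts was not tested.

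Over all genes, 412 passed at 6 h (1 to 1422 over the alternatives), 71 at 12 h (0 to 293) and 1873 between the sexes (869 to 2826), and for the differences 28 (0 to 694), 1705 (83 to 2914) and 408 (135 to 909). Median centring gave 3 higher and 89 lower at 6 h in place of 122 and 290, 18 and 3 at 12 h in place of 28 and 43, and 551 and 939 between the sexes in place of 920 and 953. The highest total of each comparison and each difference was on single arrays with a dye term. The number of arrays limits the precision.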
